A study of Saccharomyces cerevisiae with 6 samples.

Results

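The 35 genes described here encode the enzymes that carry glucose to ethanol in the budding yeast Saccharomyces cerevisiae, the gluconeogenic enzymes that run the pathway backwards, and the enzymes that make and break fructose-2,6-bisphosphate. They were chosen by name, from hexokinase to alcohol dehydrogenase, with earlier results of these data known. They are 35 of the 5917 genes in the deposited table. RNA was measured in 3 cultures treated for 60 minutes with 20 uM edelfosine and in 3 vehicle cultures given 0.095% ethanol for the same time. The treatment labels name ethanol for the vehicle cultures only. Edelfosine is a synthetic ether lipid, an analogue of lysophosphatidylcholine. All cultures were wild type by title, in log phase and in synthetic defined medium. The labels give W303 as the strain of replicates 1 and 2 in each group and BY4741 as that of replicate 3, a pair of common haploid laboratory strains. Strain therefore cannot be told apart from whatever else set replicate 3 apart. Values are listed for replicates 1, 2 and 3 in that order throughout.

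As background, glycolysis turns each glucose into a pair of pyruvate molecules, and fermenting yeast sends the pyruvate on through acetaldehyde to ethanol. Many steps have paralogous isozymes, of which one dominates in cells growing on glucose and another is known from cells that are short of glucose, grow on other carbon sources or have entered stationary phase. Gluconeogenesis shares most steps with glycolysis and replaces the irreversible ones with its own enzymes. Fructose-2,6-bisphosphate activates phosphofructokinase and inhibits fructose-1,6-bisphosphatase, so its level tips the balance between both directions.

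The deposited values were TPM, transcript levels scaled to a fixed total, so the depth is unknown and no counting error can be given. The composition of the libraries differed between treatments. Cytosolic ribosomal protein genes took 14.8 ± 3.74% of TPM in edelfosine cultures and 53.0 ± 1.63% in vehicle cultures (mean ± SD, n = 3 each). On TPM as deposited, the median log2 change over all genes was 0.55. Libraries were therefore scaled so that the median gene lay near 0 (0.0088), and each change below is relative to that gene, since RNA amounts per cell were not measured. The part of this shift in the results below was not tested, beyond the fits on TPM as deposited and the shares within a step. Because whole cultures were measured, fewer cells of a kind and less RNA per cell cannot be told apart. MET17, deleted in BY4741, was listed at 0 in the replicate 3 library of either group, while replicates 1 and 2 held 32.9 to 55.7 TPM of it.

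The pathway did not change uniformly. Between edelfosine and vehicle cultures the balance of isozymes differed most in hexose phosphorylation, GAPDH, enolase, pyruvate carboxylase and 6-phosphofructo-2-kinase. GPM1, CDC19, PDC1 and ADH1 remained the main isozymes of their steps. Their mean shares were at least 92.6% in edelfosine cultures and 89.4% in vehicle cultures. All 35 genes passed the filter of at least 1 TPM in at least 3 libraries, PDC6 only through its edelfosine libraries, so that it had to differ and its rise is no support. Of them 13 rose, 14 fell and 8 did not pass (limma, Benjamini-Hochberg adjusted p under 0.05 over 5707 genes). Without PDC6 12 of 34 rose. Over the 35 genes 77.1% were called, against 54.6% of all genes tested. PDC6 is included in this figure and in those that follow for the 35 genes. By direction, 37.1% of the 35 rose and 40% fell, against 27.3% of all genes in each direction. Their median log2 change was -0.52, with 0.0088 over all genes, and the median size of the change without its sign was 1.01, with 0.60 over all genes. In 27 of the 35 genes the edelfosine and vehicle libraries did not overlap, which was so for 61.6% of all genes tested (edelfosine above in 30.3% and below in 31.3%). The genes that rose were HXK1, GLK1 and EMI2 for hexose phosphorylation, TDH1, GPM2, ENO1, PYK2 and PDC6 among the isozymes of the lower pathway, FBP1, PCK1 and PYC1 of gluconeogenesis, and PFK26 and FBP26 for fructose-2,6-bisphosphate. Those that fell were HXK2, FBA1, TPI1, TDH2, GPM1, GPM3, ENO2, PDC1, PDC5, ADH1, ADH2, ADH4, ADH5 and PYC2.

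Part of these calls rests on the scaling or on single libraries. In 14 of the 27 called genes the call was kept under every other scaling, filter, pseudocount and design tried in which the gene was tested, and with any 1 library left out, leaving aside the test against 1.5-fold. These were HXK1, GLK1, TDH1, GPM2, ENO1, FBP1, PCK1, PYC1, PFK26 and FBP26, which rose, and TDH2, ENO2, ADH4 and ADH5, which fell. The share kept over all called genes was not computed, so the count is not read as particular to the pathway. PDC6 was called in the 14 alternatives that tested it, but with any 1 edelfosine library left out it failed the filter and was not tested. Each of the other 12 missed the threshold under at least 1 of these settings, named beside it below. With TPM as deposited 14 of the 35 genes were called higher and 4 lower. Of the 14 falls 10 no longer passed, and TDH3 was added to the rises. Among all 5707 genes 2837 were then called higher and 760 lower, so on that scale the 35 genes were not called more often than all genes. When the change was tested against 1.5-fold rather than 0, 7 rose and 4 fell, against 611 and 706 of all genes. PDC6 was among the rises in both of these counts.

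**Figure D1:**
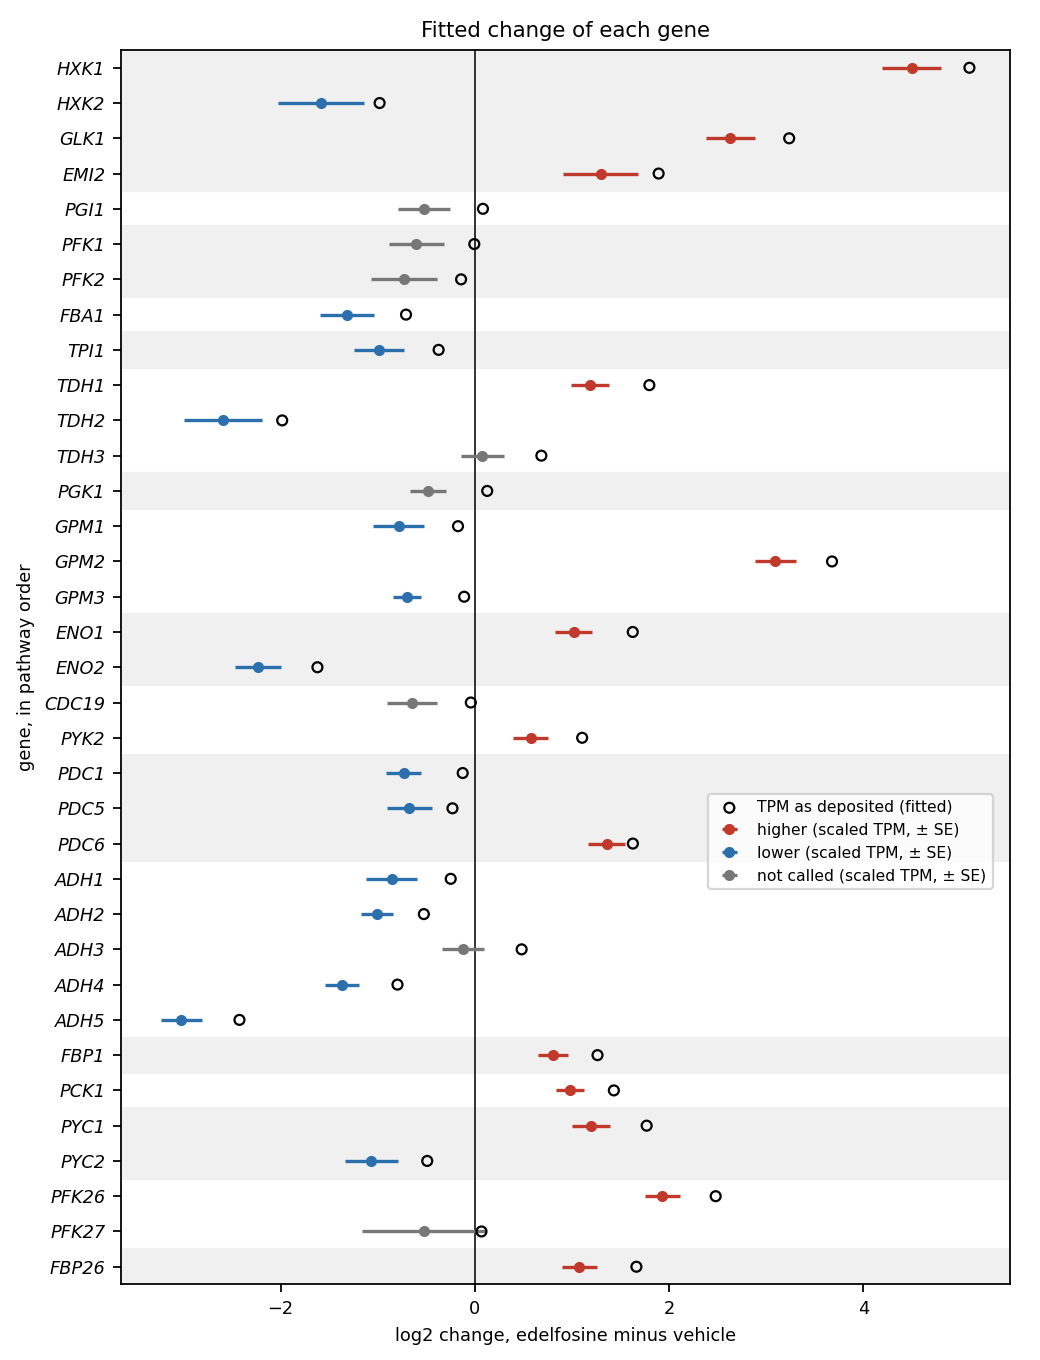
Fitted log2 change (edelfosine minus vehicle) of the 35 genes, in pathway order from top to bottom, with bars for the standard error; red genes were called higher, blue lower and grey not called, and open circles show the same fit on TPM as deposited. The open circles lie to the right of the filled ones in every gene, and HXK1, at 4.50, and ADH5, at -3.02, mark the ends of the range.

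At the first step, hexose phosphorylation, HXK1, GLK1 and EMI2 rose and HXK2 fell. HXK1 (YFR053C), a hexokinase known to be repressed by glucose, had 453, 826 and 1053 scaled TPM in edelfosine cultures, against 27, 18.1 and 63.4 in vehicle cultures (log2 change 4.50 ± 0.30, adjusted p = 0.000288). GLK1 (YCL040W), the glucokinase, which does not act on fructose, had 448, 623 and 679 scaled TPM in edelfosine cultures, against 68.4, 67.5 and 167 in vehicle cultures (log2 change 2.63 ± 0.25, adjusted p = 0.000773). HXK2 (YGL253W), the main hexokinase of cells growing on glucose and a partner in glucose repression, had 221, 79.4 and 74.6 scaled TPM in edelfosine cultures, against 316, 276 and 414 in vehicle cultures (log2 change -1.59 ± 0.44, adjusted p = 0.0225). Edelfosine replicate 1 kept more HXK2 than the other edelfosine libraries, yet no edelfosine value reached a vehicle value. EMI2 (YDR516C), a paralogue of GLK1, had 81.5, 126 and 115 scaled TPM in edelfosine cultures, against 26.2, 27.2 and 106 in vehicle cultures (log2 change 1.30 ± 0.38, adjusted p = 0.0283), and here the groups overlapped, since the BY4741 vehicle culture already held 106 scaled TPM. As a share of the TPM of the 4 kinases, HXK2 made up 9.0 ± 8.09% in edelfosine cultures and 66.1 ± 9.54% in vehicle cultures, and HXK1 made up 47.5 ± 8.84% in edelfosine cultures and 6.42 ± 1.91% in vehicle cultures (mean ± SD, n = 3 each). GLK1 made up 36.7 ± 1.24% in edelfosine cultures and 18.4 ± 3.45% in vehicle cultures. Such shares are ratios within a library and do not depend on the scaling. The groups did not overlap for these 3 shares (exact permutation p = 0.1 each, two-sided, the smallest that 3 against 3 can give). The summed level of the step was 1593 ± 363 scaled TPM in edelfosine cultures and 526 ± 197 in vehicle cultures. HXK2 no longer passed without edelfosine replicate 3 (adjusted p = 0.128), without vehicle replicate 1, 2 or 3 (adjusted p = 0.0585 to 0.116), with TPM as deposited (-0.98, adjusted p = 0.0908) and in W303 alone (-1.13, adjusted p = 0.123). EMI2 no longer passed without vehicle replicate 1 or 2 (adjusted p = 0.119), with quantile normalization (1.18, adjusted p = 0.0536) and without the strain term (1.30, adjusted p = 0.0781).

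The DNA upstream of the 4 hexose kinase genes is shown because they moved in opposite directions. Each window holds 300 bases that end 100 bases before the start codon, in the S288C reference assembly R64, read towards the gene, so the strains' own sequences may differ. Capitals mark matches on either strand to AGGGG, the stress response element that the general stress factors Msn2 and Msn4 are known to bind, or to the Mig1 box, searched as GCGGGG or GTGGGG or CCGGGG or CTGGGG. A run of 4 Gs on 1 strand cannot belong to both, because the base before it differs.
HXK1 (chrVI:255150-255449, minus strand): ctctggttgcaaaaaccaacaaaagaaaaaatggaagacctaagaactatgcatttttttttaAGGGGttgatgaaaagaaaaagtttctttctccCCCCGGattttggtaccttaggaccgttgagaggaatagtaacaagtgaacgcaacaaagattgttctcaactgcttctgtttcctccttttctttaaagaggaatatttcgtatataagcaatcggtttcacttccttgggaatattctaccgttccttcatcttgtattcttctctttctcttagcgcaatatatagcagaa
GLK1 (chrIII:50438-50737, plus strand): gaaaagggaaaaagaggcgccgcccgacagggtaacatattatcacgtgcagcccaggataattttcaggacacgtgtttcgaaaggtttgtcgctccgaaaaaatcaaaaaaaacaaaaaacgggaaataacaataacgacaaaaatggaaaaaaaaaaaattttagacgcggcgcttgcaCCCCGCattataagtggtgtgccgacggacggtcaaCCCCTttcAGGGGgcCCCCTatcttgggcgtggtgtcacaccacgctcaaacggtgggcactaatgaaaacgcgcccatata
EMI2 (chrIV:1476577-1476876, minus strand): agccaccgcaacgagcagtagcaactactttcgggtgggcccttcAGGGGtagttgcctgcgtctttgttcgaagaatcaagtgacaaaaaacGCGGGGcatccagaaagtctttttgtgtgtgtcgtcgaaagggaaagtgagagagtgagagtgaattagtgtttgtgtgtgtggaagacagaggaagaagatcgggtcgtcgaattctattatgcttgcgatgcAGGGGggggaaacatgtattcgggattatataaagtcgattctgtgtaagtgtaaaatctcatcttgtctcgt
HXK2 (chrVII:23535-23834, plus strand): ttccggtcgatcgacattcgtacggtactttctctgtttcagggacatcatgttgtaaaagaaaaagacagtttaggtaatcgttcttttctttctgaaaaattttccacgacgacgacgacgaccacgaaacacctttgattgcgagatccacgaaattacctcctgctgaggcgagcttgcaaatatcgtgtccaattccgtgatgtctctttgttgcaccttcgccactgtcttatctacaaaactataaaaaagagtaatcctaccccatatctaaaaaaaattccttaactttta
HXK1, GLK1 and EMI2, which rose, hold 1, 3 and 2 stress response elements and 1 Mig1 box each. HXK2, which fell, holds neither. Part of the GLK1 window is annotated as coding sequence of YCL042W.

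Over the whole pathway, a Mig1 box lay in the windows of 8 of the 13 genes that rose, namely HXK1, GLK1, EMI2, GPM2, ENO1, FBP1, PCK1 and PYC1. It lay in 0 of the 14 that fell and in 0 of the 8 that were not called. Over all 35 genes that was 8 windows, against 14.8% of the windows of 5910 genes. The matching shares over all genes that rose or fell were not computed. Mig1 is the repressor that carries much of glucose repression. The stress response element was spread otherwise, with 6 of the 13 genes that rose, 6 of the 14 that fell and 3 of the 8 that were not called, against 23.6% of all windows. CTTCC, the box of the glycolytic activator Gcr1, lay in 7 of the 13 that rose, 8 of the 14 that fell and 6 of the 8 that were not called, against 47.0% of all windows. These are matches of letters in short windows, given as a description without a test, and binding was not measured. Parts of the PGI1, GPM3, ADH5 and PYC2 windows are annotated as coding sequence of other genes.

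Between the hexose phosphates and the trioses, aldolase and triosephosphate isomerase fell. FBA1 (YKL060C), the aldolase that splits fructose-1,6-bisphosphate, had 2627, 1538 and 3235 scaled TPM in edelfosine cultures, against 5819, 5098 and 6841 in vehicle cultures (log2 change -1.32 ± 0.28, adjusted p = 0.00833). TPI1 (YDR050C), which interconverts the trioses, had 2292, 1393 and 2138 scaled TPM in edelfosine cultures, against 3722, 3615 and 3922 in vehicle cultures (log2 change -0.98 ± 0.26, adjusted p = 0.0179). For both genes every edelfosine value lay below every vehicle value. PGI1 (YBR196C), phosphoglucose isomerase, did not pass, with 367, 193 and 264 scaled TPM in edelfosine cultures, against 378, 350.3 and 423 in vehicle cultures (log2 change -0.52 ± 0.26, adjusted p = 0.135). The phosphofructokinase subunit genes PFK1 (YGR240C) and PFK2 (YMR205C), for the alpha and beta subunits, did not pass either. PFK1 had 56.2, 27.7 and 26.6 scaled TPM in edelfosine cultures, against 58.8, 49.8 and 51.3 in vehicle cultures (log2 change -0.60 ± 0.28, adjusted p = 0.115). PFK2 had 47.8, 18.6 and 20.5 scaled TPM in edelfosine cultures, against 45.1, 44.7 and 43.9 in vehicle cultures (log2 change -0.73 ± 0.34, adjusted p = 0.111). In all 3 of these genes edelfosine replicate 1 lay at the vehicle level and edelfosine replicates 2 and 3 lay below it. Without edelfosine replicate 1, PGI1, PFK1 and PFK2 were called lower, at -0.81, -0.93 and -1.15 (adjusted p = 0.0133, 0.00219 and 0.000567, limma). PFK1 made up 56.8 ± 2.91% in edelfosine cultures and 54.4 ± 2.00% in vehicle cultures of the subunit pair (exact permutation p = 0.3). FBA1 no longer passed without vehicle replicate 1 (adjusted p = 0.0503), with TPM as deposited (-0.71, adjusted p = 0.052) and with quantile normalization (-0.36, adjusted p = 0.319). TPI1 no longer passed without edelfosine replicate 3 (adjusted p = 0.0849), without vehicle replicate 1, 2 or 3 (adjusted p = 0.0616 to 0.0783), with TPM as deposited (-0.37, adjusted p = 0.223), with quantile normalization (0.21, adjusted p = 0.498) and in W303 alone (-1.02, adjusted p = 0.074).

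The next step, glyceraldehyde-3-phosphate dehydrogenase (GAPDH), has 3 isozymes, and each took its own course. TDH1 (YJL052W), known from stationary phase cells, had 798, 592 and 909 scaled TPM in edelfosine cultures, against 322, 319 and 352 in vehicle cultures (log2 change 1.19 ± 0.19, adjusted p = 0.00327). TDH2 (YJR009C), an isozyme of growing cells, had 509, 169 and 327 scaled TPM in edelfosine cultures, against 1813, 1686 and 2038 in vehicle cultures (log2 change -2.59 ± 0.40, adjusted p = 0.00269). For both, the groups stood well apart. TDH3 (YGR192C), the most abundant isozyme, had 5315, 5254 and 7039 scaled TPM in edelfosine cultures, against 5568, 5051 and 5982 in vehicle cultures (log2 change 0.07 ± 0.22, adjusted p = 0.792), and its groups overlapped. The share of TDH2 in the GAPDH transcripts was 7.69%, 2.81% and 3.95% in edelfosine cultures and 23.5%, 23.9% and 24.3% in vehicle cultures. TDH1 made up 11.0 ± 1.10% in edelfosine cultures and 4.30 ± 0.195% in vehicle cultures, and TDH3 made up 84.2 ± 3.61% in edelfosine cultures and 71.8 ± 0.447% in vehicle cultures (exact permutation p = 0.1 for each of the 3 shares). The step as a whole had 6971 ± 1169.9 scaled TPM in edelfosine cultures and 7710.3 ± 658 in vehicle cultures (exact permutation p = 0.4), and on TPM as deposited it had 8591 ± 1226 TPM in edelfosine cultures and 6305 ± 1208 in vehicle cultures (p = 0.1, exact). TDH3 was called higher with TPM as deposited and with quantile normalization (0.68 and 0.96). The 3 coding sequences are close copies. TDH2 and TDH3 were 95.8% identical, TDH1 and TDH2 90.2%, and only 49.4% of the 31-base words of TDH2 occurred in no other gene's coding sequence, against 56.8% for TDH3 and 73.7% for TDH1. How well reads were divided among them was not tested.

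The windows upstream of the GAPDH genes are shown in the same way, since the coding sequences are so alike while the levels parted.
TDH1 (chrX:337871-338170, plus strand): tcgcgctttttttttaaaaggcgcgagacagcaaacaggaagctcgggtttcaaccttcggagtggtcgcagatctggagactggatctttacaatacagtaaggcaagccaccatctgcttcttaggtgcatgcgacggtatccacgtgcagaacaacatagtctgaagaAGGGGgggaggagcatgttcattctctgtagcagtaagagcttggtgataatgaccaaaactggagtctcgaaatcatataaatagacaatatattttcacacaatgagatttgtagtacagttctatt
TDH2 (chrX:454782-455081, minus strand): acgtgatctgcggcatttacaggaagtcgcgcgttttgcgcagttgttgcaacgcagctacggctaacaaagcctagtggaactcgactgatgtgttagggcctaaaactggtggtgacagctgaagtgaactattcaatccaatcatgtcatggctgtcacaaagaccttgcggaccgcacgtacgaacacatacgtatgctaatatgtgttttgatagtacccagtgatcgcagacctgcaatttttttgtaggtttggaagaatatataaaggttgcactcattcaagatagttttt
TDH3 (chrVII:883911-884210, minus strand): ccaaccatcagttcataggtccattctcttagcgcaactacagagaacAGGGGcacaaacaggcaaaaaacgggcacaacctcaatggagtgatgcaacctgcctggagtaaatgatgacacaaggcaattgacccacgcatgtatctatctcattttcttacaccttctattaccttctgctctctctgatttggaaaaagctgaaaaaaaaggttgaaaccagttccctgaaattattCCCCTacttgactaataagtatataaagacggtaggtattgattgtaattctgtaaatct
TDH1 holds 1 stress response element, TDH3 holds 2 and TDH2 holds none, and no Mig1 box lies in these 3 windows. Part of the TDH1 window is annotated as coding sequence of YJL052C-A.

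Phosphoglycerate kinase and mutase came next. PGK1 (YCR012W), the first enzyme that returns ATP, had 1349, 1299.9 and 1692 scaled TPM in edelfosine cultures, against 1952, 1779 and 2332 in vehicle cultures (log2 change -0.48 ± 0.19, adjusted p = 0.0678). It did not pass, although its groups did not overlap, and it was called higher with quantile normalization (0.54; adjusted p = 0.0388, limma) and lower without the variance trend (-0.48; adjusted p = 0.0246). GPM1 (YKL152C), the phosphoglycerate mutase that carries the flux, had 4274, 2984 and 5093 scaled TPM in edelfosine cultures, against 6512, 7182 and 7082 in vehicle cultures (log2 change -0.78 ± 0.26, adjusted p = 0.0421). GPM2 (YDL021W), a mutase homologue thought to be without that activity, had 98.0, 147 and 144 scaled TPM in edelfosine cultures, against 10.8, 13.1 and 19.5 in vehicle cultures (log2 change 3.09 ± 0.21, adjusted p = 0.00029). The other homologue, GPM3 (YOL056W), had 23.0, 21.2 and 23.0 scaled TPM in edelfosine cultures, against 33.1, 39.7 and 38.4 in vehicle cultures (log2 change -0.70 ± 0.15, adjusted p = 0.00793). GPM2 was thus the second largest rise among the 35 genes, yet as a share of the mutase transcripts it made up 3.21 ± 1.28% in edelfosine cultures and 0.206 ± 0.0580% in vehicle cultures, and GPM1 made up 96.2 ± 1.38% in edelfosine cultures and 99.3 ± 0.0709% in vehicle cultures. GPM1 no longer passed without edelfosine replicate 1 or 3 (adjusted p = 0.0726 to 0.111), without vehicle replicate 1, 2 or 3 (adjusted p = 0.0758 to 0.142), with TPM as deposited (-0.17, adjusted p = 0.542), with scaling by a trimmed mean (-0.72, adjusted p = 0.0591), with quantile normalization (0.08, adjusted p = 0.773), without the filter (-0.78, adjusted p = 0.0534), with the replicate number as a block (-0.78, adjusted p = 0.072) and in W303 alone (-0.92, adjusted p = 0.0933). GPM3 no longer passed without edelfosine replicate 3 (adjusted p = 0.0535) and with TPM as deposited (-0.11, adjusted p = 0.598).

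Enolase showed the plainest exchange of isozymes. ENO1 (YGR254W), the isozyme known to vary little with carbon source, had 1611, 1322 and 1523 scaled TPM in edelfosine cultures, against 739, 702 and 754 in vehicle cultures (log2 change 1.02 ± 0.19, adjusted p = 0.00478). ENO2 (YHR174W), the glucose-induced isozyme, had 493, 349 and 641 scaled TPM in edelfosine cultures, against 2384, 2086 and 2302 in vehicle cultures (log2 change -2.23 ± 0.24, adjusted p = 0.001). The groups lay far apart in both, and the rise of ENO1 came with the fall of ENO2 in each of the 3 replicate numbers. ENO1 made up 76.6%, 79.1% and 70.4% of enolase transcripts in edelfosine cultures and 23.7%, 25.2% and 24.7% in vehicle cultures, or 75.4 ± 4.50% in edelfosine cultures and 24.5 ± 0.780% in vehicle cultures (exact permutation p = 0.1, two-sided). The summed level was 1979.7 ± 269 scaled TPM in edelfosine cultures and 2989 ± 177 in vehicle cultures, and on TPM as deposited it was 2443 ± 301 TPM in edelfosine cultures and 2438 ± 389 in vehicle cultures. The coding sequences of ENO1 and ENO2 were 94.8% identical, and 61.2% of the 31-base words of each were its own.
The upstream windows of this pair were as follows.
ENO1 (chrVII:1000527-1000826, plus strand): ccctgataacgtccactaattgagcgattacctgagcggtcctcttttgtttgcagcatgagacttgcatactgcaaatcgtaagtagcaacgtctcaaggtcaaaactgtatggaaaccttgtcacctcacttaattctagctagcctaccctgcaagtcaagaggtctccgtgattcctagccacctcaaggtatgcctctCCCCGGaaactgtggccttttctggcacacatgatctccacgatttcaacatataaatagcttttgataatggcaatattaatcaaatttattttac
ENO2 (chrVIII:450927-451226, plus strand): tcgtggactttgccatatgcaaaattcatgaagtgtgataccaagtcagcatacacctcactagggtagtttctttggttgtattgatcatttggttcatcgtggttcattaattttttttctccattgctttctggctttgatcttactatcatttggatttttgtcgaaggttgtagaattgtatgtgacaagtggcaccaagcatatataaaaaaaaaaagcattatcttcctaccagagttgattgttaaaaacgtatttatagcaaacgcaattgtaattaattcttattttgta
ENO1 holds 1 Mig1 box and ENO2 holds none, and neither holds a stress response element. Part of the ENO2 window is annotated as coding sequence of YHR173C.

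**Figure D2:**
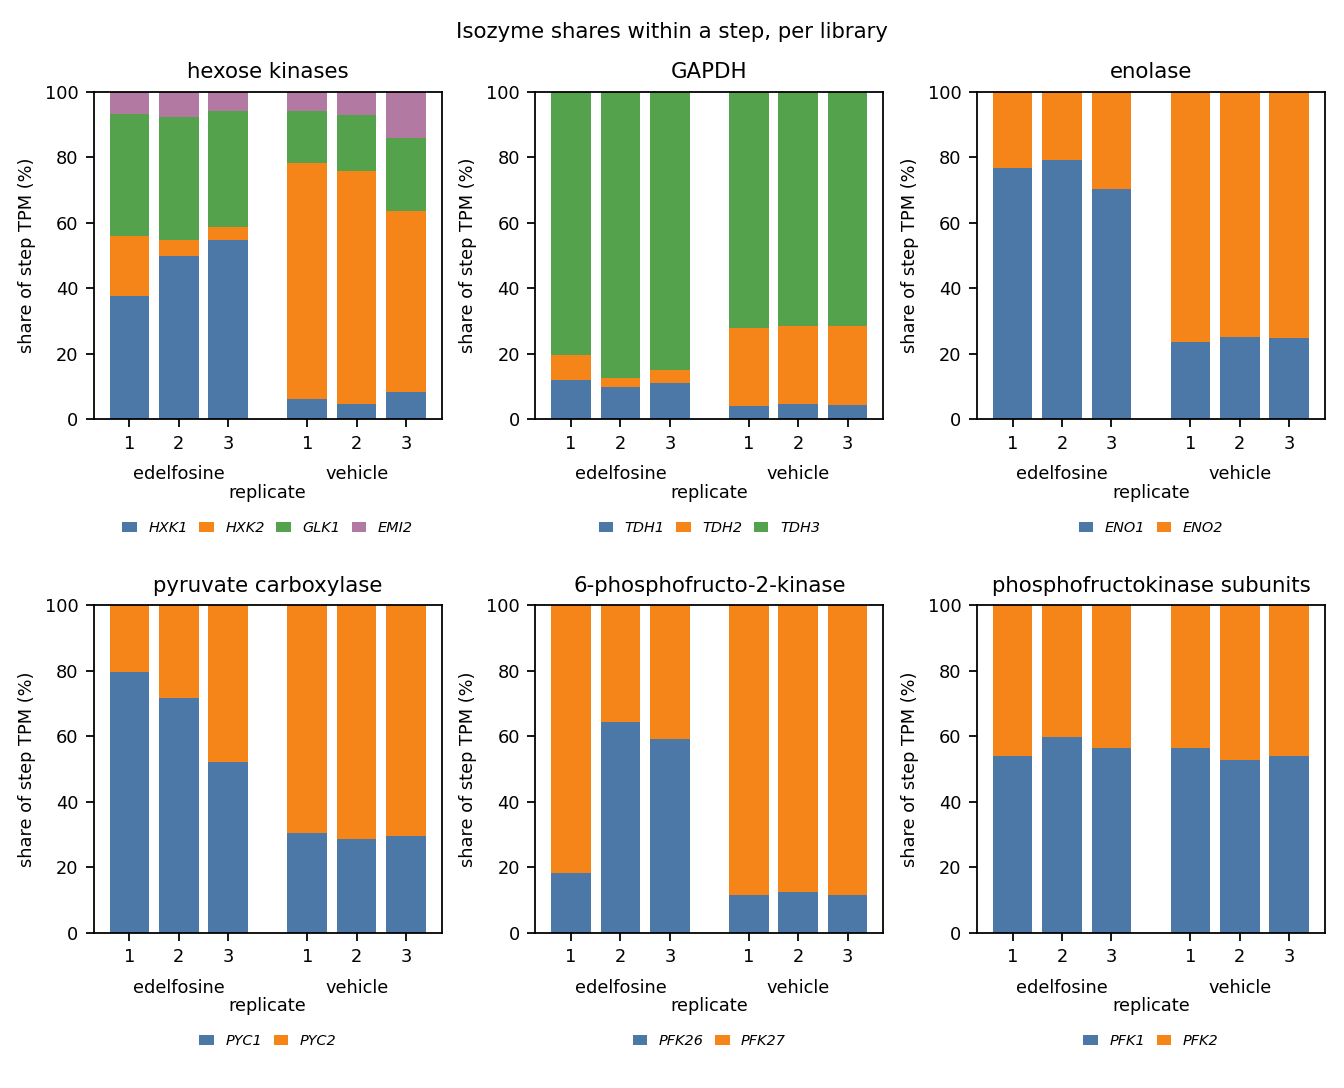
Share of each isozyme or subunit in the summed TPM of its step, in percent, as 1 stacked bar per library; replicates 1 and 2 are W303 and replicate 3 is BY4741. The 3 edelfosine bars stand apart from the 3 vehicle bars for HXK1, HXK2 and GLK1, for GAPDH, enolase and pyruvate carboxylase, and less widely for 6-phosphofructo-2-kinase. ENO1 takes 70.4% or more in edelfosine bars and at most 25.2% in vehicle bars, and the phosphofructokinase subunits overlap.

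Pyruvate kinase, the last step of glycolysis, rested on CDC19 (YAL038W), which had 995, 593 and 777 scaled TPM in edelfosine cultures, against 1323, 1027 and 1309 in vehicle cultures (log2 change -0.65 ± 0.26, adjusted p = 0.0718). CDC19 did not pass, and its groups did not overlap. It was called lower without edelfosine replicate 1 (-0.88; adjusted p = 0.0236, limma) and with the replicate number as a block (-0.65; adjusted p = 0.0449). The minor isozyme PYK2 (YOR347C), known to be glucose-repressed and independent of fructose-1,6-bisphosphate, had 6.82, 9.40 and 12.1 scaled TPM in edelfosine cultures, against 6.11, 5.01 and 6.56 in vehicle cultures (log2 change 0.57 ± 0.18, adjusted p = 0.0336). PYK2 made up 1.26 ± 0.502% in edelfosine cultures and 0.481 ± 0.0197% in vehicle cultures of the transcripts of the step. PYK2 no longer passed without edelfosine replicate 3 (adjusted p = 0.119), without vehicle replicate 1, 2 or 3 (adjusted p = 0.0581 to 0.16), without the strain term (0.57, adjusted p = 0.0612) and in W303 alone (0.48, adjusted p = 0.133).

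In the fermentation branch PDC1, PDC5, ADH1, ADH2, ADH4 and ADH5 fell, PDC6 rose and ADH3 did not pass. PDC1 (YLR044C), the main pyruvate decarboxylase, had 394, 321 and 582 scaled TPM in edelfosine cultures, against 580.3, 551 and 1064 in vehicle cultures (log2 change -0.73 ± 0.18, adjusted p = 0.0142). Within each strain the edelfosine value was the lower one, but the BY4741 edelfosine culture lay at the level of the W303 vehicle cultures, so the groups overlapped. PDC5 (YLR134W), the isozyme known to take over when PDC1 is lost, was low, with 1.80, 2.83 and 1.77 scaled TPM in edelfosine cultures, against 3.47, 3.06 and 5.65 in vehicle cultures (log2 change -0.67 ± 0.23, adjusted p = 0.0473). PDC6 (YGR087C), a minor isozyme known from sulfur limitation, had 3.16, 1.92 and 1.77 scaled TPM in edelfosine cultures, against 0.313, 0.151 and 0.318 in vehicle cultures (fitted log2 change 1.36 ± 0.19). All 3 vehicle libraries lay under the filter, so the gene was tested only through its edelfosine libraries, and its share of the step was at most 0.792%. PDC1 no longer passed without edelfosine replicate 3 (adjusted p = 0.104), without vehicle replicate 1 or 3 (adjusted p = 0.0594 to 0.071), with TPM as deposited (-0.13, adjusted p = 0.606), without the strain term (-0.73, adjusted p = 0.105) and in W303 alone (-0.65, adjusted p = 0.086). PDC5 no longer passed without edelfosine replicate 1 or 3 (adjusted p = 0.0597 to 0.216), without vehicle replicate 1, 2 or 3 (adjusted p = 0.0775 to 0.214), with TPM as deposited (-0.23, adjusted p = 0.482), with scaling by a trimmed mean (-0.63, adjusted p = 0.0573), without the filter (-0.67, adjusted p = 0.0577), with a pseudocount of 0.1 (-0.88, adjusted p = 0.0518), with the replicate number as a block (-0.67, adjusted p = 0.0601), without the variance trend (-0.67, adjusted p = 0.0522) and in W303 alone (-0.36, adjusted p = 0.208).

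ADH1 (YOL086C), which reduces acetaldehyde to ethanol, had 1639, 1051 and 2197 scaled TPM in edelfosine cultures, against 2937, 2427 and 3163 in vehicle cultures (log2 change -0.86 ± 0.26, adjusted p = 0.0322). ADH5 (YBR145W), an isozyme of little-known function, had 21.0, 21.3 and 34.6 scaled TPM in edelfosine cultures, against 202, 229.8 and 198 in vehicle cultures (log2 change -3.02 ± 0.21, adjusted p = 0.0003), the largest fall among the 35 genes. ADH5 made up 1.5 ± 0.303% in edelfosine cultures and 6.72 ± 1.40% in vehicle cultures of the alcohol dehydrogenase transcripts (exact permutation p = 0.1). ADH4 (YGL256W), an enzyme known to be induced when zinc is short, had 10.4, 8.62 and 9.98 scaled TPM in edelfosine cultures, against 29.6, 29.7 and 21.0 in vehicle cultures (log2 change -1.37 ± 0.17, adjusted p = 0.00151). ADH2 (YMR303C), the glucose-repressed isozyme that oxidises ethanol, had 3.36, 2.26 and 2.22 scaled TPM in edelfosine cultures, against 5.92, 6.66 and 6.04 in vehicle cultures (log2 change -1.01 ± 0.16, adjusted p = 0.00324). It fell, unlike FBP1 and PCK1, which are glucose-repressed as well and rose. ADH3 (YMR083W), the mitochondrial isozyme, had 69.5, 94.5 and 79.1 scaled TPM in edelfosine cultures, against 108, 71.4 and 87.2 in vehicle cultures (log2 change -0.12 ± 0.22, adjusted p = 0.662), and its groups overlapped. ADH2 shared 18.4% of its 31-base words with ADH1, whose level was far higher, and the part of ADH1 reads in its value was not tested. ADH1 no longer passed without edelfosine replicate 3 (adjusted p = 0.0784), without vehicle replicate 1, 2 or 3 (adjusted p = 0.0583 to 0.131), with TPM as deposited (-0.25, adjusted p = 0.416), with quantile normalization (0.25, adjusted p = 0.456) and in W303 alone (-1.01, adjusted p = 0.0684). ADH2 no longer passed with TPM as deposited (-0.53, adjusted p = 0.0546).

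The gluconeogenic genes FBP1 and PCK1 rose and stayed low, and PYC1 rose while PYC2 fell. FBP1 (YLR377C), fructose-1,6-bisphosphatase, had 4.85, 4.84 and 4.99 scaled TPM in edelfosine cultures, against 1.96, 1.98 and 3.34 in vehicle cultures (log2 change 0.81 ± 0.16, adjusted p = 0.00588). PCK1 (YKR097W), phosphoenolpyruvate carboxykinase, had 4.72, 4.75 and 5.36 scaled TPM in edelfosine cultures, against 1.78, 2.37 and 1.94 in vehicle cultures (log2 change 0.98 ± 0.14, adjusted p = 0.00234). Neither gene's groups overlapped, and both stayed at a few TPM, where the pseudocount of 1 understates the change. Pyruvate carboxylase makes oxaloacetate in the cytosol. PYC1 (YGL062W) had 27.9, 34.7 and 22 scaled TPM in edelfosine cultures, against 11.6, 10.3 and 12.8 in vehicle cultures (log2 change 1.20 ± 0.20, adjusted p = 0.00345). PYC2 (YBR218C) had 7.07, 13.8 and 20.2 scaled TPM in edelfosine cultures, against 26.4, 25.8 and 30.6 in vehicle cultures (log2 change -1.07 ± 0.27, adjusted p = 0.0172). PYC1 made up 79.8%, 71.6% and 52.1% of the pair in edelfosine cultures and 30.6%, 28.6% and 29.4% in vehicle cultures, while the sum of the pair was 41.9 ± 6.77 scaled TPM in edelfosine cultures and 39.2 ± 3.75 in vehicle cultures (exact permutation p = 0.7). PYC2 no longer passed without vehicle replicate 1 or 2 (adjusted p = 0.0801 to 0.0804) and with TPM as deposited (-0.49, adjusted p = 0.152).

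Of the genes for fructose-2,6-bisphosphate, PFK26 and FBP26 rose and PFK27 did not pass. PFK26 (YIL107C), a 6-phosphofructo-2-kinase that makes it, had 20.9, 30.0 and 26.6 scaled TPM in edelfosine cultures, against 5.93, 5.05 and 7.05 in vehicle cultures (log2 change 1.93 ± 0.18, adjusted p = 0.000752). FBP26 (YJL155C), the phosphatase that removes it, had 38.8, 51.8 and 49.2 scaled TPM in edelfosine cultures, against 17.4, 21.8 and 25.9 in vehicle cultures (log2 change 1.08 ± 0.18, adjusted p = 0.00372). Thus a gene for its making and the gene for its removal rose together. The other kinase gene, PFK27 (YOL136C), known to be induced by glucose, had 92.9, 16.6 and 18.4 scaled TPM in edelfosine cultures, against 46.0, 35.7 and 54.2 in vehicle cultures (log2 change -0.52 ± 0.64, adjusted p = 0.516). Edelfosine replicate 1 lay above all vehicle cultures and edelfosine replicates 2 and 3 below them. Without edelfosine replicate 1, PFK27 was called lower, at -1.35 (adjusted p = 0.000485, limma), and the fitted change was 0.07 without edelfosine replicate 2. PFK26 made up 18.4%, 64.4% and 59.1% of the kinase pair in edelfosine cultures and 11.4%, 12.4% and 11.5% in vehicle cultures.

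**Figure D3:**
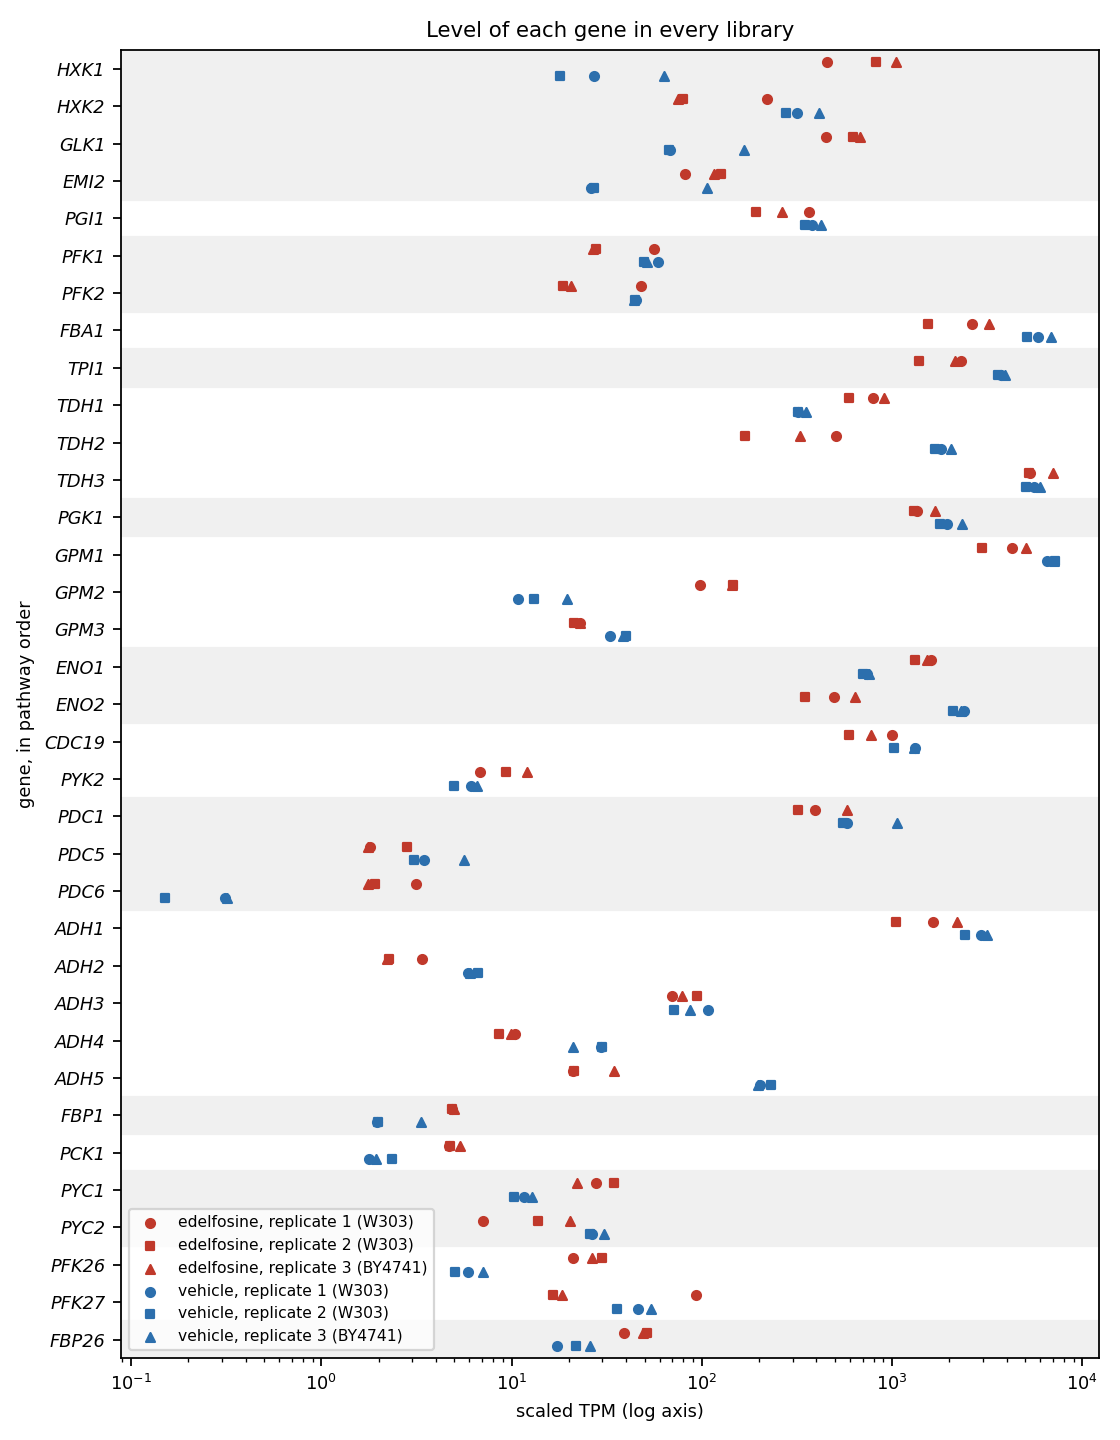
Scaled TPM of each of the 35 genes in every library, on a log axis, with edelfosine libraries in red above vehicle libraries in blue and the marker shape giving replicate and strain. Edelfosine replicate 1 (red circle) lies apart from replicates 2 and 3 in HXK2, PFK1, PFK2 and PFK27, and vehicle replicate 3 (blue triangle) lies toward the edelfosine cultures in HXK1, GLK1 and EMI2.

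Summed over isozymes, the 17 steps went in both directions. Scaled TPM in edelfosine cultures was 3.03 times the vehicle level for hexose phosphorylation, 2.02 times for fructose-1,6-bisphosphatase, 2.44 times for phosphoenolpyruvate carboxykinase and 2.15 times for fructose-2,6-bisphosphatase. It was 0.417 times for aldolase, 0.517 for triosephosphate isomerase, 0.551 for alcohol dehydrogenase, 0.612 for phosphoglycerate mutase, 0.651 for pyruvate kinase, 0.662 for enolase and 0.904 for GAPDH. In 11 of the 17 sums the groups did not overlap, which is near the 61.6% of all single genes tested. Each of the 11 had an exact permutation p of 0.1 (0.155 after Benjamini-Hochberg adjustment over the 17), and 3 against 3 cultures cannot reach 0.05. On TPM as deposited 6 of the 17 did not overlap, and all 6 were higher in edelfosine cultures. The ratio was 4.49 for hexose phosphorylation and 1.36 for GAPDH. The lower steps named above other than GAPDH overlapped there, with ratios of 0.624 for aldolase, 0.783 for triosephosphate isomerase, 0.826 for alcohol dehydrogenase, 0.928 for phosphoglycerate mutase, 0.981 for pyruvate kinase and 1.00 for enolase. Of the 28 isozyme shares, which the scaling cannot alter, 19 did not overlap (exact permutation p = 0.1, adjusted 0.147 over the 28), counting both members of a pair although one share mirrors the other. No matching figure over all genes was computed for the shares or for the sums on TPM as deposited. All 35 genes together held 2.98 ± 0.531% of deposited TPM in edelfosine cultures and 2.91 ± 0.559% in vehicle cultures.

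**Figure D4:**
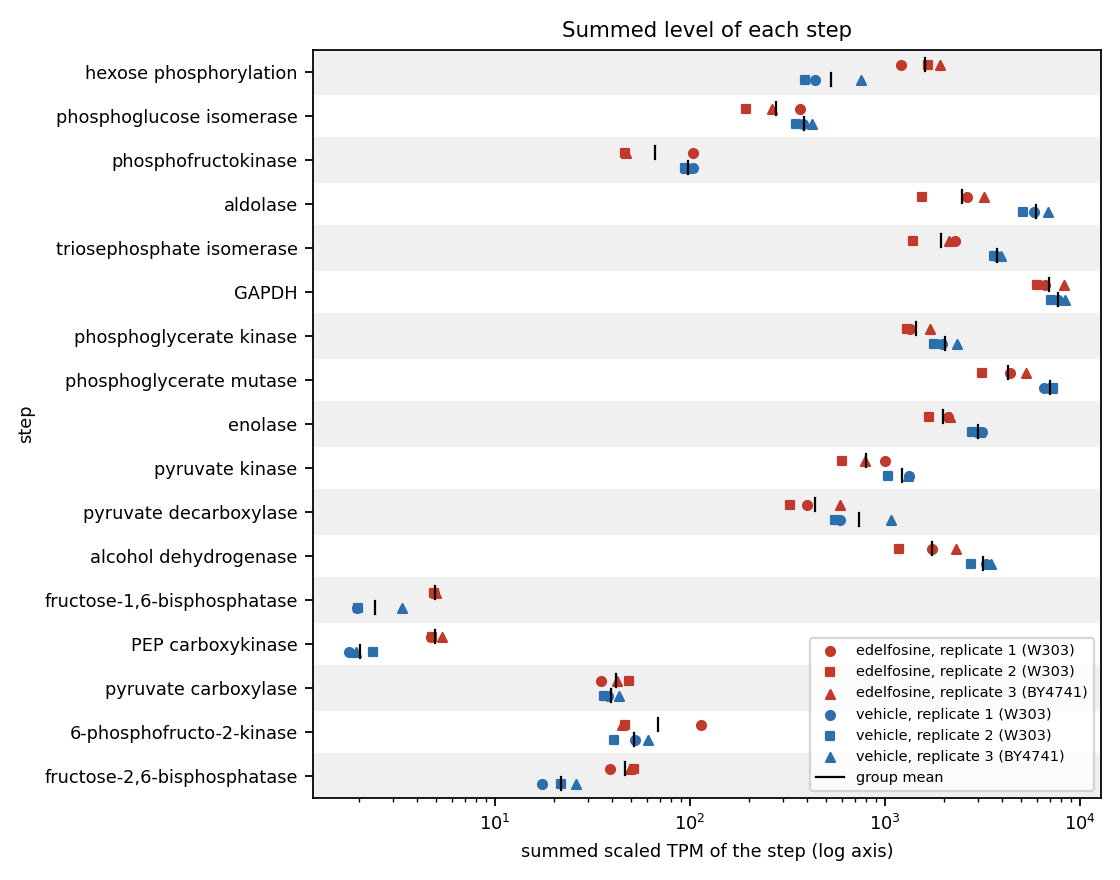
Summed scaled TPM of the isozymes of each step, on a log axis, per library, with edelfosine in red above vehicle in blue and black ticks for the group means. Hexose phosphorylation lies at 1203 or more in edelfosine libraries and at 751 or less in vehicle libraries, and aldolase at 3235 or less in edelfosine libraries and 5098 or more in vehicle libraries.

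Regulators and neighbouring enzymes were described from lists outside the 35 genes, to be read against the 27.3% of all genes called higher and the 27.3% called lower. The lists here and in the next paragraph were chosen with earlier results of these data known, so their counts are a description only. Of 5 glycolytic transcription factors 3 fell and 0 rose: GCR1 (-0.62 ± 0.15) and GCR2 (-0.57 ± 0.13), which activate glycolytic genes, and RAP1 (-0.60 ± 0.16), a general activator. None of these 3 passed with TPM as deposited (-0.06, 0.01 and -0.05), and none of them passed when vehicle replicate 2 was left out (adjusted p = 0.0632, 0.0579 and 0.0622, limma). Further losses came without vehicle replicate 1 for GCR1 and RAP1 (0.0648 and 0.0719), without vehicle or edelfosine replicate 3 for GCR2 and RAP1 (0.0577 to 0.122) and without edelfosine replicate 2 for RAP1 (0.0553). In W303 alone GCR2 and RAP1 did not pass either (adjusted p = 0.0658 and 0.113, limma). Of 5 gluconeogenic transcription factors 2 rose and 0 fell, which is near the share of all genes called higher. ADR1, an activator of glucose-repressed genes, had 4.32, 6.28 and 4.96 scaled TPM in edelfosine cultures, against 1.12, 0.950 and 1.44 in vehicle cultures (fitted log2 change 1.51 ± 0.17). CAT8, an activator of gluconeogenic genes, had 2.56, 3.94 and 2.89 scaled TPM in edelfosine cultures, against 0.800, 0.650 and 0.678 in vehicle cultures (fitted log2 change 1.26 ± 0.16). CAT8 passed the filter only through its edelfosine libraries, and ADR1 would not have passed through its vehicle libraries alone. Neither rise is therefore support for the list. The GID ubiquitin ligase marks FBP1 and PCK1 protein for removal when glucose returns, and 8 of its 9 listed genes rose (median log2 change 1.15), against 27.3% of all genes. Its ubiquitin-conjugating enzyme gene UBC8 had 170.1, 213 and 168 scaled TPM in edelfosine cultures, against 42.2, 52.9 and 68.1 in vehicle cultures (log2 change 1.75 ± 0.22, adjusted p = 0.00137). GID10 rose by 1.70, FYV10 by 1.49 and VID30 by 1.07. RMD5 did not pass (log2 change 0.36 ± 0.16, adjusted p = 0.0955). VID24, counted among the rises, was called at adjusted p = 0.0406 (limma), and its groups overlapped. VID24, VID28, GID7 and GID8 were not carried through the alternatives.

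Of 5 further alcohol dehydrogenase genes 4 rose and 1 fell, against 27.3% of all genes in each direction. BDH2, next to the butanediol dehydrogenase gene BDH1 and similar to it, had 150.0, 243 and 228 scaled TPM in edelfosine cultures, against 7.08, 5.93 and 18.4 in vehicle cultures (log2 change 4.31 ± 0.30, adjusted p = 0.0003). BDH1 rose by 2.27 and ADH7 by 0.95, whereas ADH6 fell by 0.81 and did not pass with TPM as deposited (-0.20; adjusted p = 0.375, limma). All 3 genes for the removal of methylglyoxal, a toxic by-product of the trioses, rose, with GLO1 at 1.76, GLO2 at 1.82 and GLO4 at 1.58 on the log2 scale, against 27.3% of all genes called higher. Of the 3 enolase-like ERR genes, 2 were tested. ERR1 and ERR2 held the same value in every library, 24.8, 23.7 and 15.8 scaled TPM in edelfosine cultures, against 0.321, 0.562 and 0.366 in vehicle cultures (fitted log2 change 3.97 ± 0.17), so the rows cannot be told apart. Both passed the filter only through the edelfosine libraries and had to differ.

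The change was also compared between strains. In the fit with a strain by treatment term, 0 of the 35 genes had an adjusted p under 0.05, as did 0% of all 5707 genes tested (limma), with 2 residual degrees of freedom and single BY4741 libraries. At an unadjusted p under 0.05 there was 1 of 35, and 3.08% of all genes. It was EMI2, for which the log2 change in BY4741 minus that in W303 was -1.77 ± 0.46 (unadjusted p = 0.0113, adjusted p over 5707 genes near 1, limma). The log2 differences of EMI2 between same-numbered cultures were 1.60 and 2.17 in W303 and 0.12 in BY4741. In 31 of the 35 genes the difference had the same sign in all 3 replicate numbers, and the exceptions were PFK2, TDH3, ADH3 and PFK27. The share over all genes was not computed, so the count is not read as particular to these genes. Same-numbered cultures were not taken as pairs.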

How the data were processed

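The authors deposited 1 table of TPM values for 6 libraries of polyadenylated RNA, in which every library has the same total and values are not whole. Per the submitters' processing notes, kallisto and sleuth were used. Neither their versions nor the transcript set are stated in the labels. The labels call the replicates biological. Nothing states that a replicate number marks a shared day, so the groups were compared without pairing.

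From the deposited TPM, libraries were scaled by trimmed means of log2 ratios (30% of ratios and 5% of levels trimmed from each end), a pseudocount of 1 was added, and log2 values were fitted with strain and treatment in limma 3.58.1 (R 4.3.3, mean-variance trend, 3 residual degrees of freedom), over the 5707 of 5917 genes that reached 1 TPM in 3 or more libraries. The pseudocount makes the changes of low genes look smaller. P-values were Benjamini-Hochberg adjusted over all of these genes. Shares and summed TPM were compared by two-sided exact permutation tests over the 6 cultures (20 arrangements). The fit was tested on simulated data. Alternatives covered scaling, filter, pseudocount, design, the variance trend, a 1.5-fold threshold and each library left out. From other lists, up to 4 called genes with the smallest adjusted p were named. Members and lists were chosen with earlier results of these data known. Sequences and coordinates come from the RefSeq annotation of R64, which holds no transcription starts; 5911 of the 5917 gene IDs matched it, and 5910 had an upstream window.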

Additional observations from a re-analysis of the deposited data

Results flagged for a closer look

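In 3 values both W303 replicate numbers moved one way and the BY4741 one the other way, and with 1 BY4741 culture per group the difference was not tested. The share of EMI2 in the hexose kinase transcripts differed by 0.780 and 0.620 percentage points in W303 (edelfosine minus vehicle) and by -8.15 in BY4741, so that the BY4741 difference minus the W303 mean was -8.85 percentage points. The share of GPM3 in the mutase transcripts differed by 0.0181 and 0.123 percentage points in W303 and by -0.101 in BY4741, a gap of -0.171. The summed 6-phosphofructo-2-kinase level differed by 61.9 and 5.81 scaled TPM in W303 and by -16.2 in BY4741, a gap of -50.05 scaled TPM, and the W303 mean rested on edelfosine replicate 1.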

How the results depend on the processing

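Over all genes, 1557 were higher and 1557 lower. TPM as deposited gave 2837 higher and 760 lower genes, with 4 of the 35 pathway genes lower. The test against 1.5-fold gave 611 higher and 706 lower genes, with 7 and 4 pathway genes. W303 alone gave 8 pathway genes lower. No count over all genes is given for that setting, so it is not read as particular to the pathway. With 1 library left out, 6 to 17 pathway genes were lower (6 without vehicle replicate 1, 17 without edelfosine replicate 1) and 11 to 12 higher. Over all genes the calls moved as well, with 1098 to 1674 lower and 1084 to 1682 higher.

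Fitted log2 changes turned direction with TPM as deposited in PGI1 (0.083), PGK1 (0.13), ADH3 (0.48), PFK27 (0.068) and GCR2 (0.011), and with quantile normalization in TPI1 (0.21), PGK1 (0.54), GPM1 (0.078) and ADH1 (0.25). With libraries left out, TDH3 ranged over -0.0053 to 0.15, ADH3 over -0.29 to 0.043 and PFK27 over -1.35 to 0.071. Differences in share turned in W303 alone for EMI2 (0.700 percentage points) and PDC5 (0.0872). With libraries left out, that of EMI2 ranged over -3.78 to 0.304, GPM3 over -0.0505 to 0.0670 and PDC5 over -0.181 to 0.102. Summed differences turned with TPM as deposited for phosphoglucose isomerase (25.7 TPM), phosphofructokinase (2.06), GAPDH (2286), phosphoglycerate kinase (126) and enolase (4.46). With libraries left out, pyruvate carboxylase ranged over -0.573 to 6.19 and 6-phosphofructo-2-kinase over -5.51 to 28.9 scaled TPM. The cause was not tested.

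With the replicate number as a block, 1488 genes were higher and 1529 lower, with 13 pathway genes in each direction. GPM1 and PDC5 no longer passed and CDC19 did (adjusted p = 0.0720, 0.0601 and 0.0449, limma). Deviations of same-numbered libraries from their group means correlated at 0.33, 0.05 and 0.51, and edelfosine replicate 1 correlated at 0.32 with vehicle replicate 2. The strain difference was not removed from these deviations, so they cannot show whether the numbers mark pairs. The numbers were not taken as pairs because the labels do not state it.

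Depth is unknown for TPM, and a low gene's counting error cannot be given. Only 3 cultures per group were measured, BY4741 is 1 culture per group, and 29 of the 35 genes passed a filter of 10 TPM.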
